A study of Homo sapiens with 24 samples.

Results

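LNCaP cells given dihydrotestosterone (DHT) together with enzalutamide were set against LNCaP cells given vehicle, to see what trace of the hormone remained in the transcriptome when its receptor was antagonised. The comparison was made within each of 2 hairpins, with 3 libraries a group, and as one effect pooled over both. It used 12 of the 24 RNA-seq libraries of the study, chosen by their treatment labels alone. LNCaP is a prostate cancer line that depends on androgen for growth. All cells carried a lentiviral hairpin, taken up at a multiplicity of infection of 10, selected in 1 µg/ml puromycin and kept in 0.5 µg/ml. The hairpin was either a scrambled non-targeting control (NTC) or one against SIRT1, labelled knockdown 10. The knockdown cells were stable clones, and the labels do not say whether knockdown 10 and the hairpin used elsewhere in the study are the same one. Every group had spent 48 h in medium with fetal bovine serum and then 24 h in androgen-poor charcoal-stripped serum. The 4 groups compared then had a further 24 h in stripped serum with 1 nM DHT plus 10 µM enzalutamide, or with vehicle, in NTC and in knockdown 10 cells. A matching pair of groups had 1 nM DHT alone for 24 h and served as the measure of the uninhibited response. No group had enzalutamide without DHT, so an effect of the drug itself and DHT action that it failed to stop cannot be told apart. The labels do not say that the replicates of a group came from separate cultures, so p-values measure the spread between these libraries, which may be technical.

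DHT is a potent natural androgen, which acts through a nuclear receptor and switches on genes such as the kallikreins KLK3 and KLK2 of the prostate secretory cell. Enzalutamide is an antiandrogen that competes with the hormone for its binding pocket. In LNCaP cells androgen also drives cell division and lipid synthesis, so androgen action can be read in secretory, metabolic and cell-cycle genes.

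SIRT1, the deacetylase targeted by the hairpin, was measured first. Levels here are CPM, counts scaled to the same normalised library size in every library. In NTC cells SIRT1 stood at 56.9, 57.8 and 61.4 CPM under DHT plus enzalutamide, against 56.1, 58.5 and 56.5 CPM under vehicle. It stood at 17.6, 20.6 and 21.4 CPM in knockdown 10 cells under DHT plus enzalutamide, against 17.6, 21.4 and 19.4 CPM under vehicle. The knockdown was present in all 6 of its libraries, and the treatments overlapped within each hairpin.

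The stripped-serum libraries held 25236335 to 35108290 expected counts each. Their summed luminal prostate markers reached 2680 to 3347 TPM (length-scaled transcript abundance), while basal, fibroblast and blood or endothelial marker sums stayed at or below 15.4. The libraries numbered 1 stood apart from the others on the third principal component in all 6 groups, at 15.4 to 19.97, against -14.7 to -2.96 for the rest. That component held 7.48% of the variance, and calls and list medians were also computed without these libraries.

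Across the transcriptome, DHT plus enzalutamide was close to vehicle. Of 14558 genes tested in NTC cells, 0 (0%) were called at an adjusted p under 0.05 by edgeR's quasi-likelihood test, while 453 had an unadjusted p under 0.05, 216 of them higher and 237 lower. DESeq2 and limma on log2 CPM also called 0, and a fit to the 12 libraries alone called 1, KLK4. In knockdown 10 cells 1 gene (0.00687%) was called, again KLK4, and 477 had an unadjusted p under 0.05. Pooling the hairpins called 5 genes (0.0343%), of which 3 were higher (KLK3, KLK4 and BAMBI) and 2 lower (GBP2 and LRRC31; 0.0137%). DESeq2 called 6 genes in knockdown 10 cells and 26 pooled, and with a replicate block the counts were 17 and 197. Both block counts come from a fit that also used the NTC replicate numbers, which did not meet the rule for pairs given with the processing.

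DHT alone, read against the same vehicle libraries, called 4352 genes in NTC cells (29.9%) and 3236 in knockdown 10 cells (22.2%). DHT plus enzalutamide against DHT alone called 4252 (29.2%) and 2949 (20.3%), the last being 4811 with a replicate block. The median absolute log2 fold change was 0.06 in either hairpin for DHT plus enzalutamide, against 0.17 in NTC and 0.15 in knockdown 10 cells for DHT alone. The wide distributions under DHT alone and the narrow ones under the combination appear in the histograms of fold changes.

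**Figure D1:**
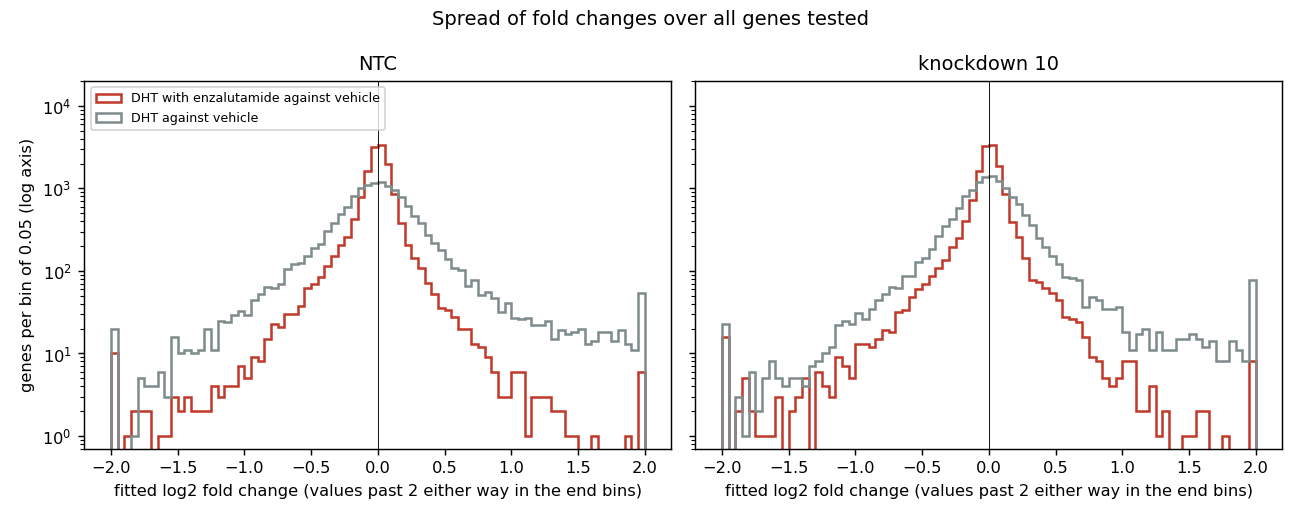
Histograms of the fitted log2 fold change of all 14558 genes tested, with DHT plus enzalutamide against vehicle and DHT alone against vehicle drawn in each hairpin, the number of genes on a log axis and values beyond 2 gathered in the end bins. The combination gives the narrower distribution in both hairpins, with median absolute log2 fold changes of 0.06, against 0.17 and 0.15 for DHT alone.

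A missed threshold does not show that a gene was at its vehicle level, so the intervals were counted too. In NTC cells the 95% interval of the fold change lay wholly within 1.5-fold of vehicle for 11681 genes (80.2%), and in knockdown 10 cells for 11649 (80%). Among the 12061 genes with a mean log2 CPM of 1 or more, the shares were 95.1% and 94.7%, and 98% for the pooled effect, which had 86.4% of all genes within that range. For DHT alone the same count gave 80.6% in NTC and 84.1% in knockdown 10 cells.

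The kallikreins stood above vehicle in every library of both hairpins. They are secreted serine proteases that lie side by side on chromosome 19. KLK3 encodes prostate-specific antigen, KLK2 encodes the protease that can activate it, and KLK4 is a further androgen-induced member. The 250 bases upstream of the RefSeq starts of KLK3 and KLK2 (GRCh38.p14, plus strand, chr19:50854665-50854914 and chr19:50873189-50873438) are shown because both genes stood above vehicle under the combination. Capitals mark a stretch of 14 bases that the pair shares, which in KLK3 lies in the androgen response element described for its proximal promoter.
KLK3: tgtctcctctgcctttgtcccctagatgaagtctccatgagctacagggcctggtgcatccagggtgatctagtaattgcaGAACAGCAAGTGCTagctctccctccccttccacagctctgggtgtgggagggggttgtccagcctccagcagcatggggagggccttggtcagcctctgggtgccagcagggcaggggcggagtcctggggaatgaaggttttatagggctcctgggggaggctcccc
KLK2: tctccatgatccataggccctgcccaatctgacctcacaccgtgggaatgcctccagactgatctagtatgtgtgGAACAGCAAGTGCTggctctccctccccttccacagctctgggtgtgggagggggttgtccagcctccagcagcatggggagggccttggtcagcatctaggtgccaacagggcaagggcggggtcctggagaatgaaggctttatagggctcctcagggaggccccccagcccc

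The capitalised stretch began 169 bases before the start of KLK3 and 175 before that of KLK2. The windows were identical at 185 of 244 aligned bases (75.8%). Searched on both strands, GAACAGCAAGTGCT occurred in 2 of 35116 RefSeq promoter windows (0.0057%). The string was chosen because the KLK3 and KLK2 windows share it, so these 2 windows were given by the choice. A longer identical run follows the capitals and is not marked, and the count does not bear on androgen response. The steroid-receptor core AGAACA occurred in 12.4% of windows, among them that of KLK3 but not that of KLK2. The windows of KLK4 held neither string, which says only that these letters are not there.

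KLK3 had 30.7, 41.6 and 43.8 CPM in NTC cells under DHT plus enzalutamide, with 256, 208 and 239 CPM under DHT alone and 24.2, 23.5 and 27.4 CPM under vehicle. It had 14.6, 10.95 and 12.6 CPM in knockdown 10 cells under DHT plus enzalutamide, 111, 82.2 and 85.6 CPM under DHT alone and 6.46, 4.83 and 6.43 CPM under vehicle. In both hairpins every library with the combination lay above every vehicle library and far below every DHT library. KLK3 was 1.54-fold vehicle in NTC cells (95% interval 1.26 to 1.90) and 2.14-fold in knockdown 10 cells (1.66 to 2.77). Pooled, it rose 1.82-fold (log2 fold change 0.86 ± 0.11, SE; adjusted p = 0.00393), but neither hairpin passed alone (adjusted p = 1 and 0.053). With a replicate block the knockdown 10 difference passed, at an adjusted p of 0.00222. DHT alone gave 9.37-fold and 15.7-fold, so that the excess over vehicle left under the combination was 6.54% of the DHT excess in NTC and 7.81% in knockdown 10 cells.

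KLK4 had 34.3, 36.9 and 36.7 CPM in NTC cells under DHT plus enzalutamide, with 110, 93.9 and 105 CPM under DHT alone and 26.0, 24.3 and 27.7 CPM under vehicle. It had 28.9, 29.9 and 29.3 CPM in knockdown 10 cells under DHT plus enzalutamide, 188, 127 and 157 CPM under DHT alone and 16.7, 15.8 and 17.7 CPM under vehicle. The 3 treatments were separate in both hairpins. The pooled rise was 1.56-fold (log2 fold change 0.64 ± 0.08, SE; adjusted p = 0.00237), from 1.38-fold in NTC (1.18 to 1.61, adjusted p = 1) and 1.76-fold in knockdown 10 cells (1.49 to 2.06, adjusted p = 0.0137). The excess left was 12.9% of the DHT excess in NTC and 8.995% in knockdown 10 cells. The pooled calls of KLK3 and KLK4 held without each of the 12 libraries in turn. The knockdown 10 call of KLK4 was kept without replicate 1 of the combination (adjusted p = 0.04997) and lost without any of the other 5 libraries, with adjusted p up to 0.145 and fold changes of 0.77 to 0.85 on the log2 scale.

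KLK2 had 10.1, 11.98 and 11.6 CPM in NTC cells under DHT plus enzalutamide, with 110, 76.1 and 78.9 CPM under DHT alone and 7.76, 4.95 and 7.33 CPM under vehicle. It had 5.71, 3.82 and 5.34 CPM in knockdown 10 cells under DHT plus enzalutamide, 62.2, 41.8 and 43.5 CPM under DHT alone and 2.33, 2.10 and 3.001 CPM under vehicle. The groups did not overlap in either hairpin. The pooled ratio was 1.82-fold (1.43 to 2.32), as large as that of KLK3, but did not pass (adjusted p = 0.0948). It passed in 5 of 10 other settings, namely DESeq2 (adjusted p = 9.0e-06), limma on log2 CPM (0.0408), no filter on low counts (0.0365), a replicate block (0.00375) and without the libraries numbered 1 (0.0364), and the highest adjusted p among the 10 was 0.123. With any 1 of the 12 libraries left out it did not pass. The excess left was 5.56% of the DHT excess in NTC and 5.31% in knockdown 10 cells. The kallikreins are similar in sequence, and reads that fit more than 1 of them were shared out by estimate in the deposited counts, so their separate levels are uncertain to that extent.

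**Figure D2:**
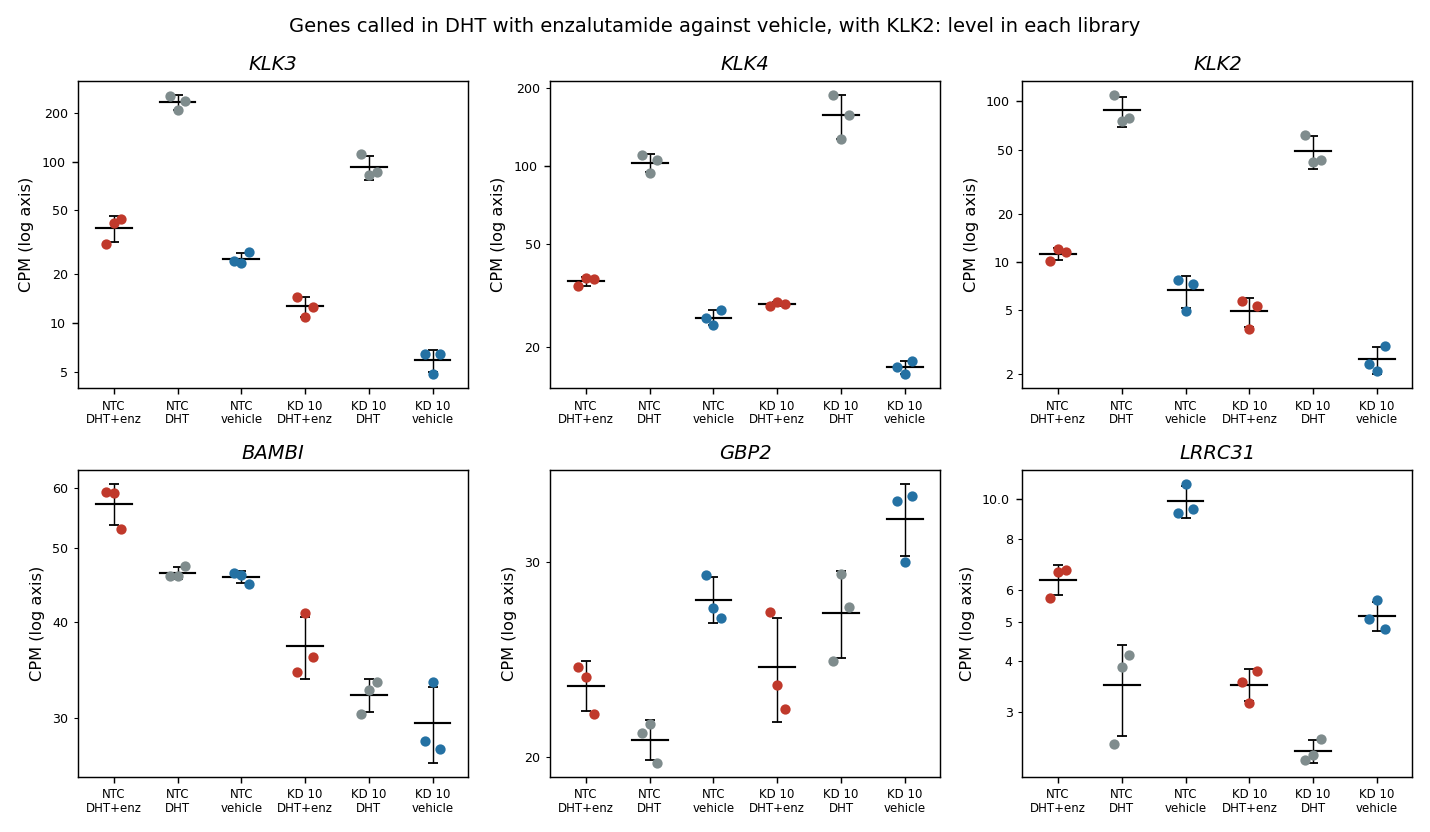
Normalised CPM of KLK3, KLK4, KLK2, BAMBI, GBP2 and LRRC31 in each library on a log axis, in NTC and then knockdown 10 cells, with DHT plus enzalutamide, DHT alone and vehicle from left to right; points are libraries, lines are group means and bars are SD (n = 3). The kallikreins under the combination sit just above vehicle and far below DHT alone, whereas BAMBI is highest under the combination.

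Other direct androgen targets showed less. TMPRSS2, the membrane protease whose promoter is fused to ERG in many prostate cancers, had 55.1, 54.6 and 55.3 CPM under DHT plus enzalutamide in NTC cells, against 54.1, 44.1 and 48.7 CPM under vehicle. It had 40.01, 39.2 and 38.9 CPM in knockdown 10 cells under the combination, against 35.7, 32.3 and 33.0 CPM under vehicle. The groups did not overlap in either hairpin, but the pooled log2 fold change of 0.19 ± 0.09 did not pass (adjusted p = 0.843). FKBP5, a chaperone of steroid receptors, had 50.4, 53.5 and 52.1 CPM under DHT plus enzalutamide, against 53.7, 50.9 and 54.8 CPM under vehicle, in NTC cells. FKBP5 had 33.3, 34.7 and 33.4 CPM in knockdown 10 cells under the combination, against 34.8, 31.8 and 32.8 CPM under vehicle, and the groups overlapped in both hairpins. Its excess was -2.24% of the DHT excess in NTC and 2.28% in knockdown 10 cells, although DHT alone raised it (log2 fold changes 0.95 and 0.91).

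BAMBI, a decoy receptor of the TGF-β family, was higher under the combination without being higher under DHT alone. It had 59.3, 59.1 and 53 CPM in NTC cells under DHT plus enzalutamide, with 45.9, 46.0 and 47.4 CPM under DHT alone and 46.4, 46.2 and 44.8 CPM under vehicle. It had 34.4, 41.1 and 36.0 CPM in knockdown 10 cells under DHT plus enzalutamide, 30.4, 32.6 and 33.4 CPM under DHT alone and 27.9, 33.4 and 27.3 CPM under vehicle. The combination lay above vehicle in every library of both hairpins, and pooled BAMBI rose 1.254-fold (1.16 to 1.36; adjusted p = 0.0416). DHT alone gave log2 fold changes of 0.02 in NTC and 0.12 in knockdown 10 cells, and neither passed.

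GBP2, an interferon-inducible GTPase, had 24.1, 23.6 and 21.8 CPM in NTC cells under DHT plus enzalutamide, with 21.0, 21.4 and 19.8 CPM under DHT alone and 29.2, 27.2 and 26.7 CPM under vehicle. It had 27.0, 23.2 and 22.1 CPM in knockdown 10 cells under DHT plus enzalutamide, 24.4, 29.2 and 27.3 CPM under DHT alone and 34.0, 29.9 and 34.4 CPM under vehicle. The combination lay below vehicle in every library of both hairpins. Pooled, GBP2 fell to 0.784 of vehicle (adjusted p = 0.0416), and DHT alone lowered it as well (log2 fold changes -0.42 and -0.28). LRRC31, a leucine-rich repeat gene, had 5.74, 6.63 and 6.70 CPM in NTC cells under DHT plus enzalutamide, with 2.51, 3.87 and 4.15 CPM under DHT alone and 9.27, 10.9 and 9.46 CPM under vehicle. It had 3.56, 3.17 and 3.80 CPM in knockdown 10 cells under DHT plus enzalutamide, 2.30, 2.35 and 2.59 CPM under DHT alone and 5.08, 5.65 and 4.81 CPM under vehicle. LRRC31 thus lay between DHT alone and vehicle in every library. It fell to 0.66 of vehicle pooled (log2 fold change -0.60 ± 0.10, SE; adjusted p = 0.0493), with 55.3% of the DHT decrease left in NTC and 60.4% in knockdown 10 cells. These 3 calls were near the threshold. BAMBI kept its call without NTC combination replicate 3, knockdown 10 combination replicate 1 or knockdown 10 vehicle replicate 2, and lost it without any of the other 9 libraries (adjusted p up to 0.197). GBP2 kept it without replicate 1 of the knockdown 10 combination or replicate 2 of the knockdown 10 vehicle and lost it without any of the other 10 (adjusted p up to 0.174). LRRC31 lost it without any 1 of the 12 (adjusted p 0.0943 to 0.210).

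In knockdown 10 cells the replicate numbers met the rule for pairs between the combination and vehicle (lowest correlation 0.162). They did not meet it between DHT alone and vehicle (lowest 0.0470). With a replicate block 17 genes were called for the combination there, 8 higher and 9 lower, in place of 1. The block fit also held the DHT and NTC libraries, so these 17 calls rest in part on numbers not read as pairs. The higher ones were KLK4, KLK3, BAMBI, the fatty aldehyde dehydrogenase ALDH3A2, the mitochondrial arginase ARG2, the NADP-linked isocitrate dehydrogenase IDH1, the glucocorticoid-induced leucine zipper TSC22D3 and the read-through transcript PHOSPHO2-KLHL23. The lower ones were GBP2, the phospholipase PLA2G2A, the surface glycoprotein CD24, the transcription factors CREB5 and SOX4, the tubulin TUBA1A, the mitotic kinesin KIF20A, the topoisomerase TOP2A and RPPH1, the RNA of ribonuclease P. KIF20A averaged 1.96 CPM under DHT plus enzalutamide and 3.69 CPM under vehicle, and TOP2A averaged 10.3 CPM under the combination and 16.1 CPM under vehicle. Their adjusted p-values were 0.0226 and 0.0454 with the block. RPPH1, CD24, ARG2 and SOX4 overlapped vehicle in knockdown 10 cells. RPPH1 had 1.19, 2.12 and 0.524 CPM under the combination there, against 3.76, 29.4 and 1.91 CPM under vehicle, so 1 library weighed on its fall. PHOSPHO2-KLHL23 had 11.5, 3.89 and 5.17 CPM under the combination, against 1.68, 0 and 0 CPM under vehicle.

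To read how complete the antagonism was across genes, DHT-responsive genes were chosen in one hairpin and read in the other, so that the vehicle libraries that chose a gene were not those that measured it. A gene was chosen where DHT alone was called and at least 2-fold from vehicle. Of these, 284 genes raised by DHT in knockdown 10 cells were read in NTC cells, and 377 raised in NTC cells were read in knockdown 10 cells.

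In NTC cells the 284 genes had a median log2 fold change of 1.63 under DHT alone and -0.22 under the combination, against 0.00 for all genes. Of these, 224 were below vehicle and 60 above (78.9% below, with 49.3% of all genes). None of the 284 was called against vehicle (0% of all genes were), while 6 higher (1.48% of all genes) and 47 lower (1.63%) had an unadjusted p under 0.05. Against DHT alone 264 were called lower (16.6% of all genes were). Their intervals were within 1.5-fold of vehicle for 99 (34.9%), and for 97 of the 214 with a mean log2 CPM of 1 or more (45.3%, with 95.1% of all such genes). NTC combination replicate 1 weighed on these values, since without it the median was -0.09 and the share within 1.5-fold 53.9%, while without replicate 3 they were -0.30 and 19.4%. With no fold minimum, over 1937 genes, the median was -0.0064.

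In knockdown 10 cells the 377 genes had a median of 1.30 under DHT alone and -0.12 under the combination, with 267 below vehicle and 110 above (70.8% below, with 49.2% of all genes). This median changed sign with the choice of fold, to 0.0434 for the 44 genes raised at least 4-fold and 0.0132 for the 2529 raised with no fold minimum. Of the 377, 1 was called higher than vehicle, KLK4 (0.00687% of all genes were), and 8 higher (1.54% of all genes) and 44 lower (1.74%) had an unadjusted p under 0.05. With the replicate block 2 were called higher and 2 lower, beside 8 and 9 of all 14558 genes. Against DHT alone 348 were called lower (12.2% of all genes were). KLK3, KLK2 and KLK4 were among the genes above vehicle in both readings.

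**Figure D3:**
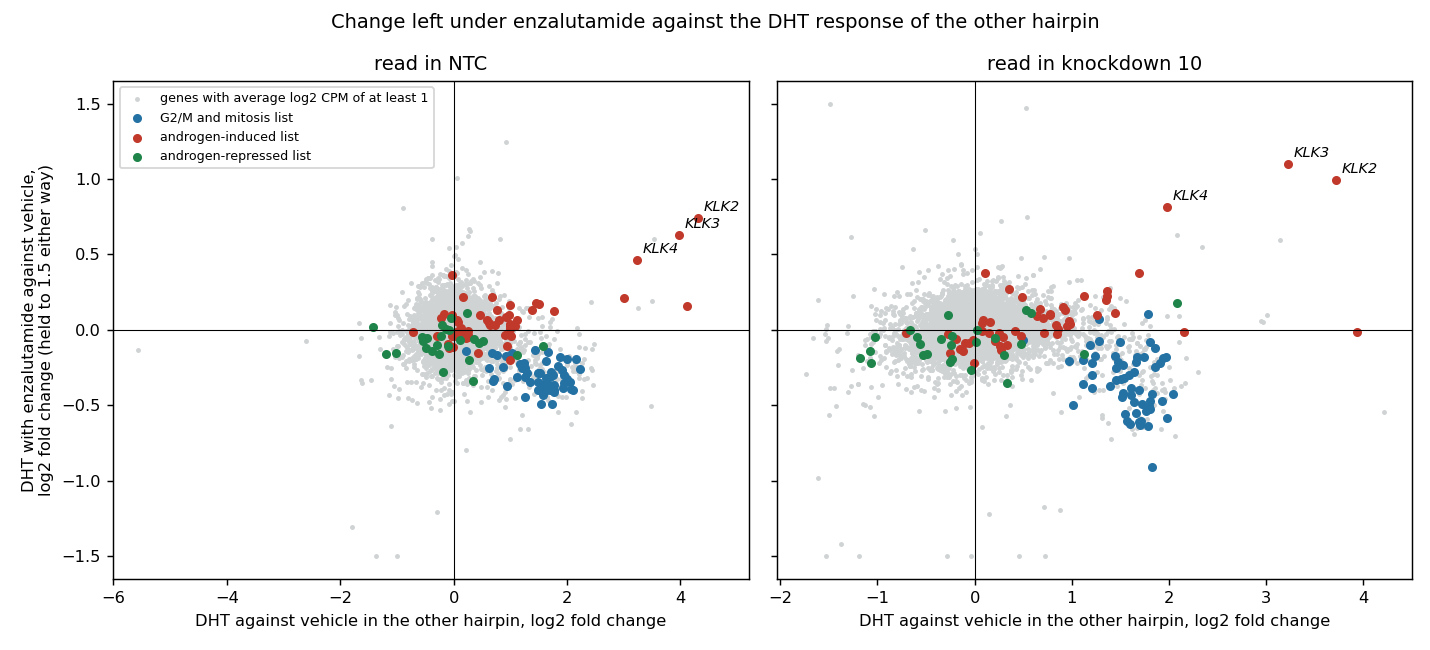
Log2 fold change of DHT plus enzalutamide against vehicle in the hairpin read (vertical) set against that of DHT alone in the other hairpin (horizontal), for genes with a mean log2 CPM of 1 or more, with G2/M, androgen-induced and androgen-repressed genes coloured. KLK3, KLK2 and KLK4 lie at the upper right of each panel, and all G2/M genes in NTC and 55 of 57 in knockdown 10 cells lie below 0 on the vertical axis, which is held to 1.5 either way.

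The genes with the largest DHT responses differed among themselves. The 8 leading genes of each hairpin, 10 genes in all, were KLK2, KLK3, KLK4, the kallikrein pseudogene KLKP1, the nicotinic receptor subunit CHRNA2, the catenin CTNNA2, the tubulin TUBA3D, the sialyltransferase ST6GALNAC1, coagulation factor V (F5) and the kinase ALPK2. CHRNA2 had 0.402, 0.463 and 0.535 CPM in NTC cells under DHT plus enzalutamide, with 8.93, 4.58 and 5.77 CPM under DHT alone and 0.47, 0.353 and 0.427 CPM under vehicle. Its excess under the combination was 0.825% of the DHT excess in NTC and 0.044% in knockdown 10 cells. F5 had 1.61, 1.497 and 1.49 CPM in NTC cells under the combination, with 13.5, 11.9 and 11.3 CPM under DHT alone and 1.44, 1.48 and 1.62 CPM under vehicle, an excess of 0.15%. ST6GALNAC1 had 1.55, 1.53 and 1.94 CPM in NTC cells under the combination, with 19.9, 18.5 and 17.7 CPM under DHT alone and 2.65, 2.79 and 1.77 CPM under vehicle. Its excess was -4.49% in NTC and 0.384% in knockdown 10 cells. All 3 overlapped vehicle in NTC cells, although DHT alone had raised them with log2 fold changes of 3.93, 3.01 and 2.97 there. F5 was among the 8 leading genes by its NTC response only. Its NTC values thus share the vehicle libraries that named it and are not a reading apart from the choice. TUBA3D and ALPK2 had log2 fold changes under the combination of 0.19 and -0.03 in NTC and -0.55 and 0.06 in knockdown 10 cells. The KLKP1 excess was 2.59% in NTC and 5.62% in knockdown 10 cells and that of CTNNA2 7.01% and 4.67%. Neither passed against vehicle (pooled adjusted p = 0.97 and 0.93).

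Genes lowered by DHT in one hairpin lay slightly below vehicle in the other under the combination. The 80 genes lowered at least 2-fold in knockdown 10 cells had NTC medians of -0.91 under DHT alone and -0.09 under the combination. Of these, 53 were below vehicle (66.25%, with 49.3% of all genes). The 148 lowered in NTC cells had in knockdown 10 cells medians of -0.81 and -0.15, with 108 below vehicle (73.0%, with 49.2% of all genes). In the hairpin read, DHT alone was called lower for only 44 of the 80 and 67 of the 148. A mean log2 CPM of 1 or more was reached by only 29 of the 80 and 57 of the 148. In both readings 0 were called against vehicle by edgeR's quasi-likelihood test (0% and 0.00687% of all genes were). At an unadjusted p under 0.05, 4 were lower in NTC (1.63% of all genes) and 13 in knockdown 10 cells (1.74%). None was higher (1.48% and 1.54% of all genes). With the replicate block 3 of the 148 were called lower in knockdown 10 cells, beside 9 of all 14558 genes. Against DHT alone 41 of the 80 were called higher (12.6% of all genes were), and 59 of the 148 (8.08% of all genes were).

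PLA2G2A, a secreted phospholipase, had 40.4, 32.5 and 32.1 CPM in NTC cells under DHT plus enzalutamide, with 16.9, 18.4 and 18.9 CPM under DHT alone and 45.8, 36.7 and 36.2 CPM under vehicle. It had 29.6, 22.6 and 27.8 CPM in knockdown 10 cells under the combination, 12.3, 11.1 and 12.1 CPM under DHT alone and 41.2, 30.1 and 41.9 CPM under vehicle. The knockdown 10 groups did not overlap, and 42.6% of the DHT decrease was left there, against 21.3% in NTC. CAMK2N1, an inhibitor of calmodulin-dependent kinase II, had 266, 231 and 232 CPM in NTC cells under DHT plus enzalutamide, with 102, 121 and 121 CPM under DHT alone and 256, 228 and 237 CPM under vehicle. It had 297, 189 and 206 CPM in knockdown 10 cells under the combination, 121, 79.6 and 102 CPM under DHT alone and 338, 216 and 252 CPM under vehicle, and the combination and vehicle overlapped in both hairpins. MATN2, a matrix protein, had log2 fold changes under the combination of 0.04 in NTC and 0.20 in knockdown 10 cells, and VWA2 had -0.00 and 0.00. REG4, a secreted lectin, had -0.33 and -0.50, the collagen COL5A1 -0.33 and -0.30, and DEGS2, CAMK1D, MYOZ1, C16orf89 and CNGA1 lay between -0.25 and 0.12. None of these passed against vehicle. SLC22A3, FAM65B and H2AFJ were chosen in knockdown 10 cells, where SLC22A3 did not exceed 1.02 CPM and the others stayed under it. In NTC cells, with 10.1 CPM or more of each, DHT alone lowered none of the 3.

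A list of 63 genes known to be induced by androgen was read as well, apart from the choice by fold. Of the 60 tested, DHT alone raised 41 in NTC (17.4% of all genes) and 41 in knockdown 10 cells (13.3%). Against vehicle, the combination raised 0 in NTC, 1 in knockdown 10 cells (KLK4) and 2 pooled (KLK3 and KLK4, with 0.0206% of all genes). Under the combination 37 were above vehicle in NTC (50.7% of all genes), 33 in knockdown 10 cells (50.8%) and 38 pooled (51.1%), 9 of these last with an unadjusted p under 0.05 (2.75%). Their median log2 fold change was 0.04 in NTC and 0.03 in knockdown 10 cells under the combination, against 0.72 and 0.75 under DHT alone. Replicates of the combination lay wholly above vehicle for 8 members in NTC (4.73% of all genes) and 10 in knockdown 10 cells (4.79%), and in both hairpins at once for 7 (0.735%). With the replicate block 3 members were called higher in knockdown 10 cells, beside 8 of all 14558 genes. They were KLK4, KLK3 and TSC22D3, and DHT alone did not raise the last (log2 fold changes 0.10 in NTC and -0.03 in knockdown 10 cells). Among the DHT-raised genes read across hairpins, 15 of the 20 from this list were above vehicle in NTC cells and 14 of 19 in knockdown 10 cells. Of 29 androgen-repressed genes, 21 were below vehicle in NTC and 24 in knockdown 10 cells, with medians of -0.07 and -0.09 and 0 called by edgeR. By unadjusted p under 0.05, 0 members were lower in NTC (1.63% of all genes), 1 in knockdown 10 cells (1.74%) and 4 pooled (3.09%). DHT alone lowered 11 of them in NTC (12.5% of all genes) and 10 in knockdown 10 cells (8.92%). It raised 5 in NTC (17.4% of all genes) and 4 in knockdown 10 cells (13.3%), shares of the list near those of all genes.

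The cell-cycle genes lay on the other side of vehicle. The G2/M list held 57 genes of mitosis, such as the kinases CDK1 and PLK1 and the securin PTTG1. DHT alone raised all 57 in NTC (17.4% of all genes) and 55 in knockdown 10 cells (13.3%), with median log2 fold changes of 1.61 and 1.58. Under the combination 57 of 57 were below vehicle in NTC (49.3% of all genes), 55 in knockdown 10 cells (49.2%) and 57 pooled (48.9%), with medians of -0.31, -0.33 and -0.33. None was called by edgeR's quasi-likelihood test. At an unadjusted p under 0.05, 19 were lower in NTC (1.63% of all genes), 18 in knockdown 10 cells (1.74%) and 39 pooled (3.09%). Replicates of the combination lay wholly below vehicle for 13 in NTC (4.34% of all genes), 29 in knockdown 10 cells (4.61%) and 9 in both hairpins at once (0.577%). With the replicate block KIF20A and TOP2A were called in knockdown 10 cells, among 9 of 14558 genes called lower. In bulk samples fewer dividing cells and less RNA per cell cannot be told apart.

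Library by library, the median of the list relative to the vehicle mean was -0.61, -0.14 and -0.11 in NTC cells under the combination, against -0.21, 0.11 and 0.10 under vehicle. It was -0.48, -0.33 and -0.16 in knockdown 10 cells under the combination, against 0.02, -0.10 and 0.04 under vehicle. The groups overlapped in NTC and were separate in knockdown 10 cells. The NTC groups were separate once the libraries numbered 1, the lowest of each, were set aside. The summed level of the list was 882, 1183 and 1192 CPM in NTC cells under the combination, against 1143, 1399 and 1393 CPM under vehicle. It was 459, 494 and 527 CPM in knockdown 10 cells under the combination, against 591, 571 and 602 CPM under vehicle. Without replicate 1 of the NTC combination the NTC median was -0.16, and over all alternatives it was -0.41 to -0.16 in NTC and -0.40 to -0.23 in knockdown 10 cells.

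**Figure D4:**
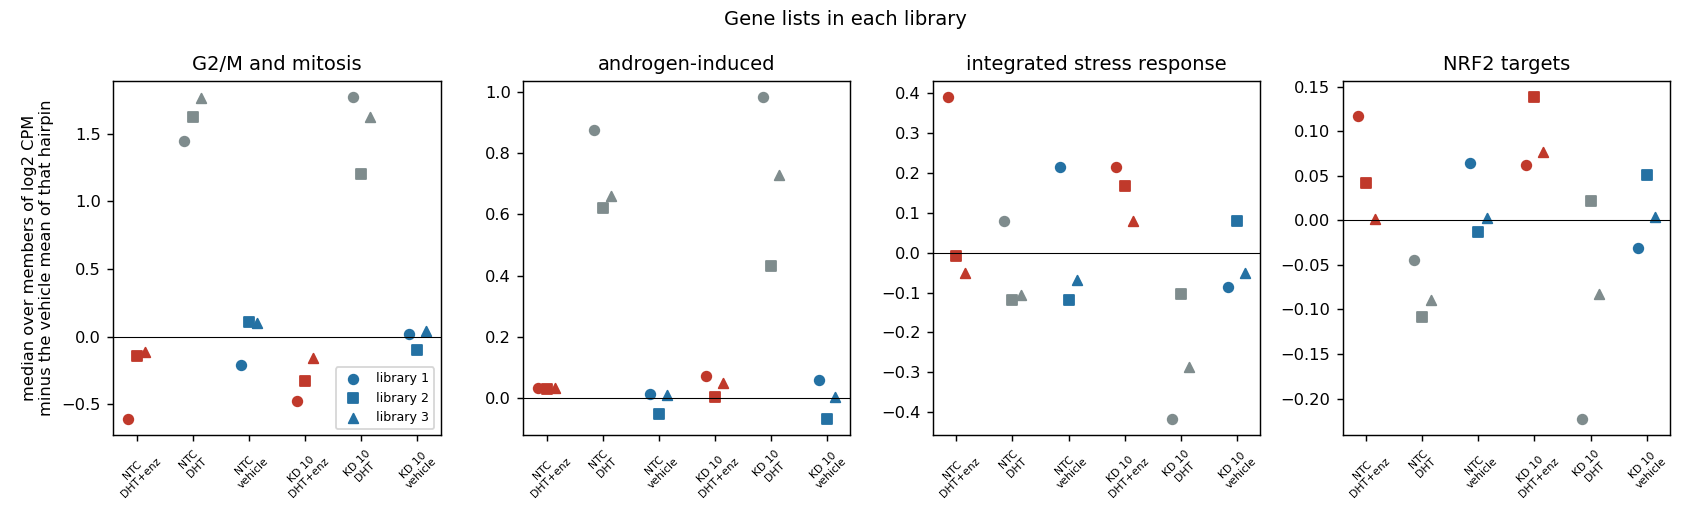
Median over the members of 4 gene lists (G2/M, androgen-induced, integrated stress response and NRF2 targets) of log2 CPM minus the vehicle mean of the same hairpin, one point a library, with DHT plus enzalutamide, DHT alone and vehicle from left to right in NTC and then in knockdown 10 cells. For G2/M the combination reaches -0.61 in NTC and -0.48 in knockdown 10 cells, both in the libraries numbered 1.

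PTTG1, the securin, had 11.6, 14.1 and 13.8 CPM in NTC cells under DHT plus enzalutamide, with 29.5, 33.6 and 39.7 CPM under DHT alone and 15.3, 17.5 and 18.2 CPM under vehicle. It had 4.64, 4.05 and 3.99 CPM in knockdown 10 cells under the combination, 12.5, 9.67 and 12.3 CPM under DHT alone and 5.91, 5.56 and 6.398 CPM under vehicle. The combination was lowest in every library, but the pooled log2 fold change of -0.43 ± 0.09 did not pass (adjusted p = 0.207). PLK1 had 7.23, 8.55 and 9.80 CPM in NTC cells under the combination, against 9.68, 10.8 and 12 CPM under vehicle, which overlapped. PLK1 had 2.53, 3.01 and 2.85 CPM in knockdown 10 cells under the combination, against 4.01, 4.47 and 4.62 CPM under vehicle, without overlap, and its pooled value of -0.49 ± 0.12 did not pass (adjusted p = 0.31). RRM2, the ribonucleotide reductase subunit that feeds DNA synthesis, had 21.5, 28.02 and 31.05 CPM in NTC cells under the combination, against 31.2, 34.8 and 35.1 CPM under vehicle. RRM2 had 6.09, 6.31 and 7.86 CPM in knockdown 10 cells under the combination, against 11.9, 9.17 and 12.1 CPM under vehicle. The groups did not overlap in either hairpin, and the pooled log2 fold change of -0.52 ± 0.13 did not pass (adjusted p = 0.319). RRM2 comes from the G1/S and replication list and was picked for its small pooled p-value there, so it does not stand for that list or for G2/M.

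The 50 genes of G1/S and replication were closer to vehicle than the G2/M genes. Their medians were -0.10 in NTC and -0.07 in knockdown 10 cells, with 44 and 37 below vehicle and 0 called by edgeR. Without the libraries numbered 1 the medians were -0.073 and -0.0199. DHT alone raised all 50 in NTC (17.4% of all genes) and 48 in knockdown 10 cells (13.3%). Among 38 genes of homologous recombination and Fanconi repair the medians were -0.10 in NTC and -0.01 in knockdown 10 cells. Outside the cell-cycle, repair and histone lists, 142 of 202 DHT-raised genes read in NTC cells lay below vehicle (median -0.16, with 49.3% of all genes below). In knockdown 10 cells 169 of 264 did (median -0.09, with 49.2% of all genes below). Only members of these lists were set aside, so other genes tied to cell division may remain among them.

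**Figure D5:**
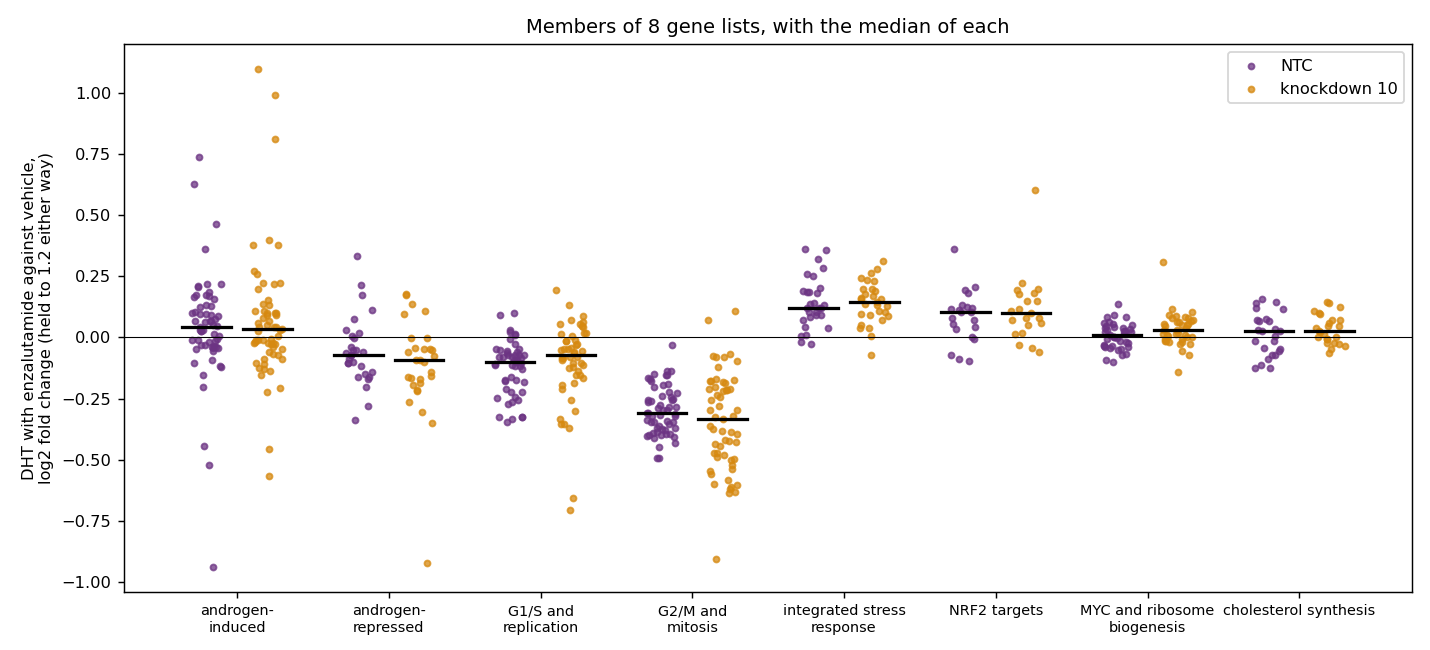
Log2 fold change of DHT plus enzalutamide against vehicle for the tested members of 8 gene lists, one point a gene, in NTC and knockdown 10 cells, with the list median as a line. The G2/M members lie below 0, save 2 in knockdown 10 cells, with medians of -0.31 and -0.33, and the androgen-induced list is centred near 0 with KLK3, KLK2 and KLK4 at its top.

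Metabolic and growth genes raised by DHT lay close to vehicle under the combination. Of 25 genes of cholesterol synthesis, DHT alone raised 21 in NTC (17.4% of all genes) and 16 in knockdown 10 cells (13.3%), and the combination had medians of 0.03 in both hairpins with all 25 intervals within 1.5-fold of vehicle. Of 39 genes of MYC and ribosome biogenesis, DHT alone raised 29 and 30, beside the same 17.4% and 13.3% of all genes, and the combination had medians of 0.01 and 0.03 with all 39 intervals within 1.5-fold in both hairpins. Of 23 genes of fatty acid synthesis DHT alone raised 14 and 12, beside those same shares, and the medians under the combination were 0.03 in both hairpins. Intervals within 1.5-fold were held by 80.2% of all genes in NTC and 80% in knockdown 10 cells. Among genes with a mean log2 CPM of 1 or more those shares were 95.1% and 94.7%, near those of the cholesterol and MYC lists. The 40 co-regulators and lineage factors of the receptor had medians of 0.01 and 0.00. None of the members of these 4 lists was called against vehicle. By unadjusted p under 0.05 in NTC cells, 0 cholesterol, 0 MYC, 0 fatty acid and 2 co-regulator genes were higher, beside 1.48% of all genes. Lists this short would hold few or none at that share, so these counts do not show closeness to vehicle.

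The difference between the hairpins was tested as well, since vehicle levels of the kallikreins were lower in knockdown 10 cells. No gene of 14558 (0%) differed in its response to the combination by edgeR's quasi-likelihood test, with 192 at an unadjusted p under 0.05, 96 in each direction (0.659%). DESeq2 and limma also called 0. KLK4 was 0.35 ± 0.15 higher in knockdown 10 than in NTC cells on the log2 scale (unadjusted p = 0.0363, adjusted p = 1) and KLK3 0.47 ± 0.23 (unadjusted p = 0.0515, adjusted p = 1). The median standard error of this difference was 0.13, and its interval was within 1.5-fold for 72.9% of genes.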

How the data were processed

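RNA-seq libraries were made from about 500 ng of TRIzol total RNA with a stranded mRNA kit, per the labels' protocols. Per the submitters' processing notes CASAVA 1.8.2, RSEM 1.2.31 and build hg19 were used. The aligner is not given in the sources used here. The authors deposited, per library, expected counts per gene as RSEM estimates them, together with TPM. The deposited expected counts were rounded to whole numbers. The deposited TPM values served for the marker sums and for 1 alternative, limma on log2(TPM + 1).

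Of 23207 genes, 14558 passed edgeR's filterByExpr. R 4.3.3 was used with edgeR 4.0.16, limma 3.58.1 and DESeq2 1.42.0. One edgeR quasi-likelihood model with TMM factors held the 18 stripped-serum libraries of 6 groups, so that all groups shared 1 estimate of the spread (common biological coefficient of variation 7.79%). The 6 libraries grown in full serum were not used. The combination was contrasted with vehicle in each hairpin, as the mean of both and as their difference. P-values were adjusted over all genes tested by Benjamini-Hochberg within each of 8 comparisons, and a gene was called at an adjusted p under 0.05. Intervals are 95% intervals from the fitted standard errors. The excess left is the combination's mean CPM minus the vehicle mean, as a percentage of DHT alone minus vehicle. The fits were tested on simulated data.

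Alternatives were other normalisations, filters, tools, a fit to the 12 libraries alone, each library left out, and a replicate block. Leaving out the libraries numbered 1 was chosen after seeing the data. Same-numbered libraries were taken as paired where every pair of deviations from the group means correlated over 0.1. In the knockdown 10 comparison with vehicle the lowest and highest such correlations were 0.162 and 0.403. They were 0.105 and 0.341 for DHT alone against vehicle in NTC cells. For the combination against DHT alone they were 0.112 and 0.361 in NTC and 0.166 and 0.276 in knockdown 10 cells. The pairing comes from these correlations, not from the labels.

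The members and the 32 gene lists were chosen with earlier results of these data known. Genes named were SIRT1, fixed androgen targets, called genes, and the 8 highest and 8 lowest DHT responses chosen in the other hairpin. Some genes of this rule are not reported here. Other genes named were chosen after their values were seen, among them PTTG1, PLK1, RRM2, TSC22D3, ALDH3A2 and the remaining genes called under the replicate block. Expected-count totals were 25236335 to 35108290 a library. Promoter sequences are from RefSeq tables of GRCh38.p14 and were not joined to hg19 coordinates.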

Additional observations from a re-analysis of the deposited data

How the results depend on the processing

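Genes called against vehicle in NTC cells stayed at 0 when each library was left out and were 1 in the fit to the 12 libraries. In knockdown 10 cells, against 1, they were 2 with upper-quartile factors, with limma on log2 CPM, with no filter, with a mean log2 CPM of 1 or more and without the libraries numbered 1. There they were also 6 with DESeq2, 0 with limma on TPM and 0 to 2 with each library left out. Pooled, against 5, they were 26 with DESeq2, 3 with limma on TPM, 3 in the fit to the 12 libraries, 9 without the libraries numbered 1 and 2 to 5 with each library left out. For the difference between hairpins, 1 gene was called without the libraries numbered 1, and 0 to 1 with each library left out. The cause of these shifts was not tested.

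With the replicate block the counts were 17 in knockdown 10 cells and 197 pooled (85 higher and 112 lower of 14558). Of the pooled ones 22 were G2/M genes, all lower. The counts were 0 in NTC and 0 for the difference between hairpins. DHT alone against vehicle in knockdown 10 cells gave 4981 and the combination against DHT alone there 4811. In the NTC comparison with vehicle the lowest same-number correlation was 0.0956 and 3 of 6 libraries correlated best with their own number, so those numbers were not read as pairs. The block fit used them all the same, so the pooled and the knockdown 10 counts rest in part on numbers not read as pairs. In the DHT comparison with vehicle in knockdown 10 cells the lowest was 0.0470, which also missed the rule. The block changed no call among the other counts by over 1.5 times.

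For DHT-raised genes read in NTC cells, the median was -0.30 to -0.09 with each library left out and -0.0064 with no minimum fold. Their share within the interval was 19.4% to 53.9% with each left out, 15.6% for 4-fold responders, 87.5% with no minimum fold, 6.34% for a narrower interval, 45.3% at a mean log2 CPM of 1 or more and 50.4% without the libraries numbered 1. With the replicate block it was 50.7%. For DHT-lowered genes read in NTC cells, the median was -0.155 to -0.0694 with each left out, -0.54 at 4-fold and -0.00483 with no minimum. Their share was 91.5% with no minimum, 3.75% for the narrower interval and 58.6% at a mean log2 CPM of 1 or more. For DHT-raised genes read in knockdown 10 cells, the median was 0.0434 at 4-fold and 0.0132 with no minimum. Their share was 35.5% to 40.4% with each left out, 11.4% at 4-fold, 88.6% with no minimum, 12.7% for the narrower interval and 53.1% at a mean log2 CPM of 1 or more. For DHT-lowered genes read in knockdown 10 cells, the median was -0.16 to -0.10 with each left out, -0.42 at 4-fold, -0.0271 with no minimum and -0.10 at a mean log2 CPM of 1 or more. Their share was 16.6% to 19.9% with each left out, 0% at 4-fold, 88.9% with no minimum, 6.08% for the narrower interval and 52.6% at a mean log2 CPM of 1 or more.

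Of the single-gene values, 3501 kept their side of the threshold under an alternative, 65 passed only there and 43 lost their call. Among values called in either fit 0 changed direction, and changes of direction were not counted for the others. Intervals within 1.5-fold were held by 80.2% of all genes in NTC cells and by 95.1% of those with a mean log2 CPM of 1 or more, and the part of depth in this was not tested.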

Other observations

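Most genes of 2 stress-response lists lay slightly above vehicle under DHT plus enzalutamide, and none was called by edgeR's quasi-likelihood test without a replicate block. Of 29 genes of the integrated stress response, the ATF4-driven programme of amino acid shortage, 27 were above vehicle in NTC cells (50.7% of all genes), 28 in knockdown 10 cells (50.8%) and 28 pooled (51.1%), with medians of 0.12, 0.15 and 0.13 on the log2 scale. In the pooled effect 6 had an unadjusted p under 0.05 (2.75% of all genes). With a replicate block 4 were called higher there, beside 85 of all 14558 genes. That pooled block also used the NTC numbers, which were not read as pairs. Without the libraries numbered 1 the medians were 0.078 in NTC, 0.088 in knockdown 10 cells and 0.083 pooled. DHT alone, which shares the vehicle libraries, lowered 6 of them in NTC (12.5% of all genes) and 5 in knockdown 10 cells (8.92%). The library medians over the vehicle mean were 0.39, -0.01 and -0.05 under the combination in NTC cells, against 0.21, -0.12 and -0.07 under vehicle. In knockdown 10 cells they were 0.22, 0.17 and 0.08 under the combination, against -0.09, 0.08 and -0.05 under vehicle. NTC combination replicate 1 carried much of the NTC value, whose median was -0.03 without it. DDIT4, an inhibitor of mTORC1, had 238, 196 and 188 CPM under the combination in NTC cells, against 191, 154 and 174 CPM under vehicle. In knockdown 10 cells DDIT4 had 209, 229 and 223 CPM under the combination, against 168, 200 and 195 CPM under vehicle, and the pooled 0.24 ± 0.07 did not pass (adjusted p = 0.479). Of 21 NRF2 targets of the antioxidant response, 17 were above vehicle in NTC and 18 in knockdown 10 cells, with medians of 0.10 in both and 0.00 in NTC without combination replicate 1. With the same replicate block 4 of the NRF2 targets were called higher in the pooled effect, beside those 85 of 14558 genes.

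Some further genes lay off vehicle under the combination without passing the pooled test. TSC22D3, the glucocorticoid-induced leucine zipper, had 95.1, 77.0 and 77.8 CPM under the combination in NTC cells, with 66.5, 71.2 and 71.3 CPM under DHT alone and 69.8, 59.6 and 65.2 CPM under vehicle. In knockdown 10 cells it had 58.8, 67.5 and 66.5 CPM under the combination, 38.8, 54.3 and 52.0 CPM under DHT alone and 43.6, 53.8 and 51.2 CPM under vehicle. The combination was above vehicle in every library, but the pooled log2 fold change of 0.37 ± 0.08 did not pass (adjusted p = 0.207). The 14 genes of the glucocorticoid response list were otherwise spread around vehicle, 6 above and 8 below pooled, with a median of -0.00. TSC22D3 was also a member of the androgen-induced list. ALDH3A2, which oxidises fatty aldehydes, averaged 227 CPM under the combination and 207 CPM under vehicle in NTC cells, and 325 CPM and 272 CPM in knockdown 10 cells. DHT alone had log2 fold changes of -0.16 and -0.23 for it. PRKCD, a protein kinase C, and PYGL, the liver form of glycogen phosphorylase, were next to the threshold, with pooled log2 fold changes of 0.22 ± 0.04 and 0.40 ± 0.07 and adjusted p of 0.0598 in both. Of 15 UGT2B enzymes and prostate surface antigens, 14 were below vehicle in NTC and 13 in knockdown 10 cells, with medians of -0.16 and -0.09 and 0 called. Under DHT alone their medians were -0.15 in NTC and -0.18 in knockdown 10 cells. UGT2B10 had 101, 108 and 94.9 CPM under the combination in NTC cells, against 131, 127 and 111 CPM under vehicle, and its pooled -0.25 ± 0.11 did not pass (adjusted p = 0.821). These genes were named after their values were seen.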
